A study of Mus musculus with 10 samples.

Results

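Long non-coding RNA gene ends are the stretches around the start and the stop of genes whose transcripts are long and encode no protein. Here they comprise 3012 ends of 2600 autosomal genes, measured by reduced representation bisulfite sequencing, which reads cytosine methylation in restriction fragments from the CpG-rich part of the genome. An end is a window of 1000 bp on each side of the annotated gene boundary in mouse build mm10 (GRCm38). It was kept where the window lay more than 5000 bp from any protein-coding gene and held at least 3 measured cytosine positions, a position being a cytosine of 1 strand. The gene table lists 12408 autosomal long non-coding RNA genes with 24816 ends, of which 14051 were isolated in this sense, 10457 of these without any measured position and 582 with 1 or 2. In all, 25363 autosomal ends of protein-coding and long non-coding RNA genes reached 3 positions.

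The DNA came from mouse embryos at embryonic day 7.5, with 5 samples titled arsenic and 5 titled control. Strain, sex, arsenic dose and route, and the number of embryos in a sample were not given in the sources used here. Counts in the deposited table carry column numbers 1 to 10 that name no group and match no single title, so 0 of the 10 columns could be tied to a sample. Arsenic was therefore not compared with control, no test between groups was made, and each value is given over the summed columns with its lowest, median or highest column.

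Most long non-coding RNAs are made by RNA polymerase II, and their promoters range from CpG islands, which are dense in CpG and usually unmethylated, to CpG-poor sequence that is usually methylated. In the mouse embryo, methylation is low in the blastocyst and is re-established around implantation, so that the epiblast of a gastrulating embryo carries a largely methylated genome with unmethylated islands. Several long non-coding RNAs host microRNAs or small nucleolar RNAs in their introns, some are expressed from 1 parental allele, and others are known from pluripotent cells or developing organs.

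The promoters below show the span of what was measured, with the ends of a small nucleolar RNA host, of genes known from brain and stem cells, of an imprinted gene and of genes at the top of the range. They were chosen after their values were seen. Each is the RefSeq sequence of GRCm38.p6 on the strand of the gene, from 250 bases before its start to 50 bases after it. A capital C marks a measured cytosine of the printed strand and a capital G a measured cytosine of the opposite strand. All 4102 measured positions in the matched promoters lay on a C of their own strand.
Snhg5, chr9:88522848-88523147, minus strand, level 0.671%
Snhg5: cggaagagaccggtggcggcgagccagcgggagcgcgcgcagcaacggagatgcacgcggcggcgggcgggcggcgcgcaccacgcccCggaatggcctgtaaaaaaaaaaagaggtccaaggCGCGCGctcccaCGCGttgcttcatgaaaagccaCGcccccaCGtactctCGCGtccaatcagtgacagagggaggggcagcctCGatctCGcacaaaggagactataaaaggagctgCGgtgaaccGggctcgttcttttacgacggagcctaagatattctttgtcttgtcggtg
2900024J01Rik, chr1:180777711-180778010, plus strand, level 0.919%
2900024J01Rik: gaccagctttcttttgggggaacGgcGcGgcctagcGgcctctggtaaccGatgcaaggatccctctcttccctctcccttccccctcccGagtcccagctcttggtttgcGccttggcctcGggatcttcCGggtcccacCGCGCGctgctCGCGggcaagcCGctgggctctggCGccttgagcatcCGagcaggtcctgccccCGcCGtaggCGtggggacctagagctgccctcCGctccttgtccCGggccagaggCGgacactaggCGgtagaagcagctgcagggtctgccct
Miat, chr5:112228899-112229198, minus strand, level 5.70%
Miat: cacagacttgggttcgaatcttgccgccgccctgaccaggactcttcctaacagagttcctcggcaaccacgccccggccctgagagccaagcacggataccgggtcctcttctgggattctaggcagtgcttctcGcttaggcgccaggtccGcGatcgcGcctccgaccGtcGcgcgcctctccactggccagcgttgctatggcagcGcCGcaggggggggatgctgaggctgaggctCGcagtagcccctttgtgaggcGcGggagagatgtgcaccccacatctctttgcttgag
Lncenc1, chr13:97434720-97435019, plus strand, level 16.6%
Lncenc1: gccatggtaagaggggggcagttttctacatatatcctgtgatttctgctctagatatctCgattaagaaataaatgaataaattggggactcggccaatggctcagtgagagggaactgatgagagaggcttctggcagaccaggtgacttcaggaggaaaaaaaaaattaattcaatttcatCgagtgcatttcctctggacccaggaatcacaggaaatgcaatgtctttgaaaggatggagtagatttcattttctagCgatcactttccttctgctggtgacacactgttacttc
Meg3, chr12:109540746-109541045, plus strand, level 31.5%
Meg3: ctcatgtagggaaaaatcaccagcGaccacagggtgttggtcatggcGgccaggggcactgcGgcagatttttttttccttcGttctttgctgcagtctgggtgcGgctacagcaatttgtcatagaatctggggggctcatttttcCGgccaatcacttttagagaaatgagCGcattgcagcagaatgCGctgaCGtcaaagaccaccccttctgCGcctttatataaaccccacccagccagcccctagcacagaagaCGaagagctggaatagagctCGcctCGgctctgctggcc
Gm30786, chr11:65660312-65660611, minus strand, level 81.1%
Gm30786: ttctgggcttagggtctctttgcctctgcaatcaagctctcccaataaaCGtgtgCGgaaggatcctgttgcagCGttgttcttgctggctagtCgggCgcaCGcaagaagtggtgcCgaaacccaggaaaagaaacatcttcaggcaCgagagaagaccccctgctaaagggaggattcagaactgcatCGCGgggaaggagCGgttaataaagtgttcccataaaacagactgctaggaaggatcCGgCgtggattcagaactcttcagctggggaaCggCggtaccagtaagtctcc
Gm12496, chr4:53403776-53404075, minus strand, level 90.9%
Gm12496: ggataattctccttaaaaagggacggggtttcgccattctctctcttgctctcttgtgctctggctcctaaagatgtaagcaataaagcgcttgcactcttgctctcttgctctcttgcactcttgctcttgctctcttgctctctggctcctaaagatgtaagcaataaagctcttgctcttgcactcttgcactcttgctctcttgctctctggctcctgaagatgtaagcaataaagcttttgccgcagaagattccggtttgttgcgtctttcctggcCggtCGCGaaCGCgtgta

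Snhg5, which hosts small nucleolar RNAs, has 36 CpGs in these 300 bases, and its 26 measured positions had a level of 0.671%, with columns between 0.202% and 1.2996%. The promoter of 2900024J01Rik holds 24 CpGs and had 0.919% over 40 positions, with columns between 0.370% and 1.93%. Miat, a nuclear RNA known from neural and cardiac tissue, has 25 CpGs and had 5.70% over 13 positions. At the other side of the range, Gm30786 with 15 CpGs had 81.1% over 23 positions, with columns between 75.9% and 86.8%. Gm12496 with 11 CpGs had 90.9% over 8 positions, all of them within the 50 bases after the start. Its columns lay between 86.9% and 95.3%, above every column of the other 6 sequences shown. Meg3, an imprinted RNA expressed from the maternal allele, lay between these groups at 31.5% over 21 positions, with columns between 16.4% and 38.6%. Lncenc1, known from embryonic stem cells, has only 4 CpGs and had 16.6% over 3 positions.

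Ends of long non-coding RNA genes were mostly partly methylated. With the calls of the 10 columns summed, the median level over the 3012 ends was 52.8%, with a lowest column of 50% (column 7), a median column of 52.3% and a highest column of 55.3% (column 1). The middle of the distribution, between the lower and upper quartiles, spanned 38.4% to 61.9%, and single ends ran from 0.205% to 90.2%. Levels between 20 and 80% were found at 2562 ends (85.1%), levels under 20% at 402 ends (13.3%) and levels above 80% at 48 ends (1.59%). In single columns these shares were 82.8 to 84.6%, 13.1 to 14.2% and 1.79 to 3.55%. Over the summed calls, the share between 20 and 80% was thus above every column and that above 80% below every column. Ends of protein-coding genes that were themselves over 5000 bp from any other protein-coding gene had a median of 5.61% over 10100 ends, with columns between 5.34% and 6.06%. All 18258 protein-coding ends together had the same median, 5.61%. In each of the 10 columns the median of the long non-coding RNA ends was above that of the protein-coding ends, and the column ranges did not overlap. The number of measured positions, which differs between both kinds of genes, is taken up further on.

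The strand, and so which end is the start, was known for 1311 starts (5' ends) and 984 stops (3' ends), and not for the other 717 ends. The gene table gives no exons, so a window was not divided into exon and intron. The 5' ends had a median of 49.4% with columns between 46.7% and 52.1%, and the 3' ends one of 55.2% with columns between 52.8% and 58.8%. These column ranges did not overlap. Levels under 20% were found at 244 of the 5' ends (18.6%) and at 70 of the 3' ends (7.11%). At isolated protein-coding genes the difference between the ends was far wider, with 2.60% at 6144 5' ends and 61.1% at 1753 3' ends. Of these protein-coding ends, 81.6% of the 5' ends and 9.01% of the 3' ends were under 20%. The contrast between the kinds of genes thus lay at the start of the gene, where the medians were 49.4% at long non-coding RNA genes and 2.60% at protein-coding genes. At the stop the order was the reverse, with 55.2% at long non-coding RNA genes and 61.1% at protein-coding genes, and no overlap of the column ranges (52.8 to 58.8% and 59.1 to 64.0%).

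**Figure D1:**
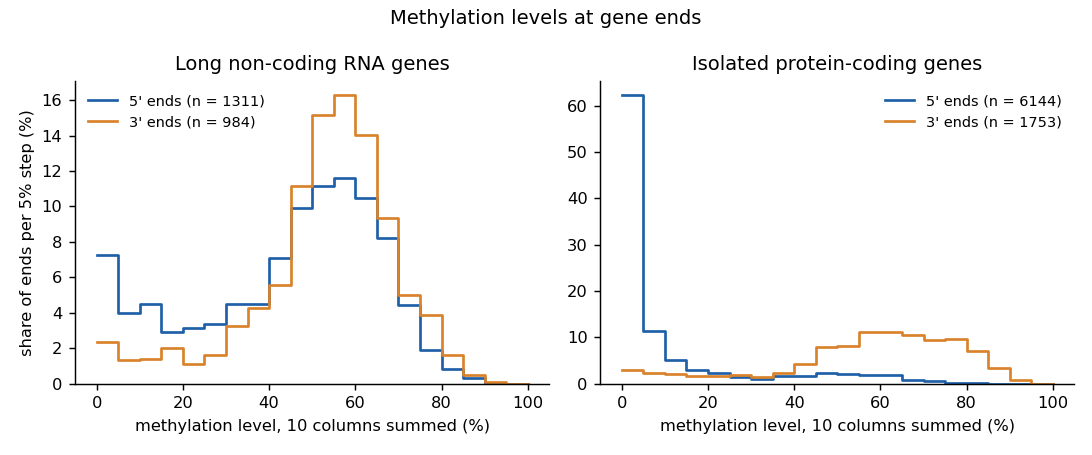
Share of gene ends (y axis, in percent, with its own scale in each panel) in each 5% step of the methylation level over the summed columns (x axis, in percent), for 5' and 3' ends of long non-coding RNA genes (left) and isolated protein-coding genes (right). The lowest step holds 7.25% of long non-coding RNA 5' ends and 62.2% of protein-coding 5' ends, while 3' ends of both kinds form a broad peak above 40%.

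The level at a 5' end was lower where its window held many measured positions, a number that depends on local CpG density and on restriction sites. Long non-coding RNA 5' ends with 3 to 4 positions had a median of 51.9%, those with 5 to 9 positions 52.6% and those with 10 to 19 positions 51.9%. Those with 20 to 39 positions had 34.0% over 183 ends, with columns between 30.4% and 35.8%, and those with 40 or more had 6.10% over 87 ends, with columns between 6.37% and 7.53%, each above the value over the summed calls. The medians were therefore flat up to 19 positions and lower beyond. At 3' ends the medians stayed between 54.4% and 56.1% up to 39 positions and were 6.22% at the 20 ends with 40 or more. The share of 3' ends under 20% was nonetheless 2.28%, 3.51%, 8.96% and 14.6% in the first 4 classes. Spearman's rho between positions and level was -0.321 across the 5' ends and -0.0753 across the 3' ends, as a description across ends, which share libraries and in part positions.

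Set beside protein-coding 5' ends with the same number of positions, long non-coding RNA 5' ends were the more methylated in every class. The medians were 51.9% at long non-coding RNA and 45.7% at protein-coding 5' ends with 3 to 4 positions, 52.6% and 28.7% with 5 to 9, and 51.9% and 7.71% with 10 to 19. With 20 to 39 positions they were 34.0% at long non-coding RNA and 2.32% at protein-coding 5' ends, and with 40 or more 6.10% and 1.54%. The widest gap lay at 10 to 19 positions, where the columns were between 48.9% and 53.0% at long non-coding RNA genes and between 7.15% and 8.60% at protein-coding genes. The share of such 5' ends under 20% was 15.5% of 381 at long non-coding RNA genes and 66.4% of 970 at protein-coding genes. Both kinds of genes also differed in how many ends were dense, with 87 of 1311 long non-coding RNA 5' ends and 2722 of 6144 protein-coding 5' ends at 40 or more positions.

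**Figure D2:**
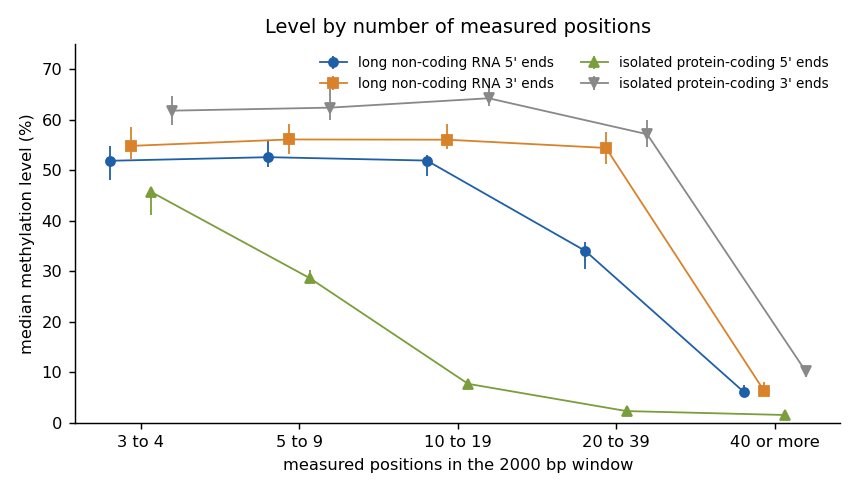
Median methylation level (y axis, in percent) of gene ends by the number of measured positions in the window (x axis), with vertical lines for the lowest and highest of the 10 columns. Long non-coding RNA 5' ends stay near 52% up to 19 positions, where protein-coding 5' ends are already at 7.71%.

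Around the start, methylation of long non-coding RNA genes dipped without approaching 0. Averaged over positions in 250 bp steps, the level around the 5' ends was lowest just after the start, at 29.9%. Its columns there lay between 28.8% and 31.3%, and it was 31.1% just before the start. It was 48.4% between 1000 and 1250 bp upstream, and lay between 42.2% and 52.6% further out on that side. The step just after the start held 3882 positions of 543 ends, and that between 1000 and 1250 bp upstream 664 positions of 142 ends. The steps thus hold partly different ends, and ends with many positions weigh most in them. At isolated protein-coding genes the same step after the start had 3.84%, with columns between 3.73% and 4.06%, and 29.4% was reached between 1000 and 1250 bp upstream. Around the 3' ends of long non-coding RNA genes there was a shallow rise in place of a dip, with 52.0% just after the stop and columns between 50.5% and 54.6%. Restricting the starts to the 5' ends with 20 or more positions gave 18.6% just after the start, with columns between 17.99% and 19.4%.

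**Figure D3:**
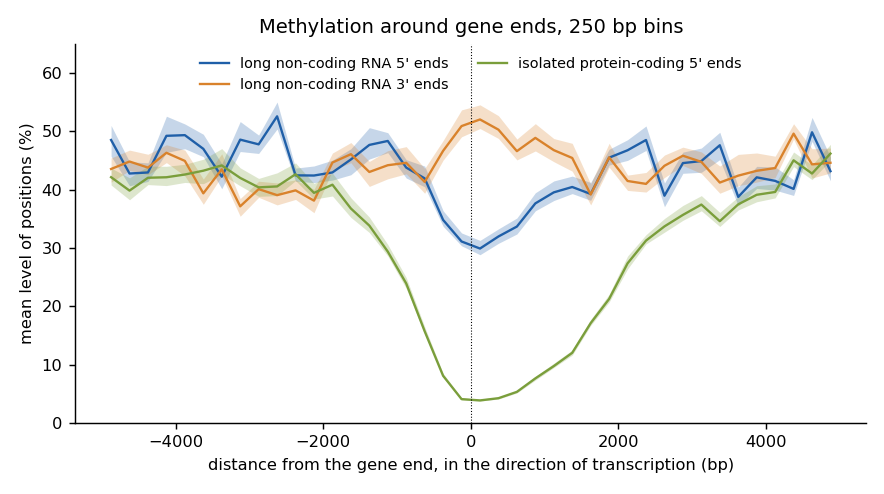
Mean methylation level of positions (y axis, in percent) in 250 bp steps by distance from the gene end in the direction of transcription (x axis, in bp, upstream negative), for 5' and 3' ends of long non-coding RNA genes and for isolated protein-coding 5' ends, with bands from the lowest to the highest column. The long non-coding RNA starts dip to 29.9% and the protein-coding starts to 3.84%, while the long non-coding RNA stops peak at 52.0%.

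The CpG content of the promoter, counted in the RefSeq sequence and not in the reads, ordered the 5' ends in the same way. A promoter sequence was matched to 1269 of the 1311 5' ends. Those with 0 to 2 CpGs in the 300 bases had a median level of 53.8%, those with 3 to 5 CpGs 51.6%, those with 6 to 9 CpGs 51.6%, those with 10 to 19 CpGs 33.6% and those with 20 or more 3.99%. Protein-coding 5' ends in these classes had 51.4%, 44.4%, 24.8%, 2.77% and 1.52%. The classes held 137, 258, 325, 928 and 1691 protein-coding ends, so many of the 6144 isolated protein-coding 5' ends are not in them. At 10 to 19 CpGs the columns lay between 28.4% and 35.8% over 185 long non-coding RNA ends and between 2.67% and 3.11% over 928 protein-coding ends. Among the 68 long non-coding RNA promoters with 20 or more CpGs, 61 (89.7%) belonged to ends under 20%. The measured ends are not a random sample of these genes, since 11.2% of isolated 5' ends with 0 to 2 CpGs but 87.2% of those with 20 or more reached 3 positions.

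Short motifs known from promoters were counted in the same 300 bases on both strands, as a description of the letters only. GGGCGG, the core of the GC box, occurred in 43.8% of the 235 promoters of 5' ends under 20% and in 9.61% of the 1020 promoters of ends between 20 and 80%. The share was 16.3% over all 11311 long non-coding RNA promoters of autosomes and 36.0% over all 31396 autosomal promoters. GGGCGG holds a CpG, as does CACGTG below. Promoters of ends under 20% had a median of 11 CpGs against 5 CpGs in those of ends between 20 and 80%. CACGTG, the E-box bound by Myc and Usf proteins, was in 11.9% of the promoters under 20% and in 6.27% of those between 20 and 80%, with 5.83% over all long non-coding RNA promoters. TATAAA ran the other way, with 8.09% of promoters under 20% and 15.4% of those between 20 and 80%, and 15.2% over all long non-coding RNA promoters. TATAAA holds only A and T, and the median content of G and C was 55.3% and 49% in these classes. CCAAT was in 31.1% and 37.0% of their promoters, with 35.8% over all long non-coding RNA promoters. Of the sequences shown above, Snhg5 and Meg3 hold both CCAAT and TATAAA, and Snhg5 and Miat hold GGGCGG.

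Both ends of the same gene were measured, at positions not identical to each other, in 280 genes with a known strand. Their median was 51.6% at the 5' end and 54.5% at the 3' end, and the median difference within a gene, 5' minus 3', was -3.10 percentage points with columns between -3.90 and -1.80. The 5' end had the lower level in 164 genes and the higher in 116. Differences of more than 20 points were found in 62 genes with the lower level at the 5' end and in 26 with the lower level at the 3' end. Both ends were under 20% in 12 genes, only the 5' end in 40, only the 3' end in 14, and neither in 214. In genes under 2 kb both windows overlap and can share positions, so the levels of their ends are not independent. Such short genes are among the 12, as Gm11205 of 445 bp with 1.57% at the 5' end and 1.52% at the 3' end. In the 85 genes with at least 10 positions at both ends the median difference was -1.97 points, with columns between -3.39 and -0.838.

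Among those 85 genes, the 4 with the widest differences included 3 with an unmethylated or lowly methylated start. Gm34755 had 0.883% at its 5' end, with columns between 0.442% and 1.47%, and 65.05% at its 3' end, with columns between 58.6% and 70.6%. 2900024J01Rik had 0.794% over 113 positions at the start shown above, against 51.2% at its 3' end. Gm40823 had 13.2% at the 5' end and 61.9% at the 3' end. Gm33028 was the exception, with 59.2% over 16 positions at its 5' end and 1.24% over 10 positions at its 3' end. In each of these genes the columns of both ends did not overlap. With windows of 2000 bp the 3' end of 2900024J01Rik had 28.5% and the 5' end of Gm34755 10.002%, and with 500 bp that 5' end had 0.288%.

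**Figure D4:**
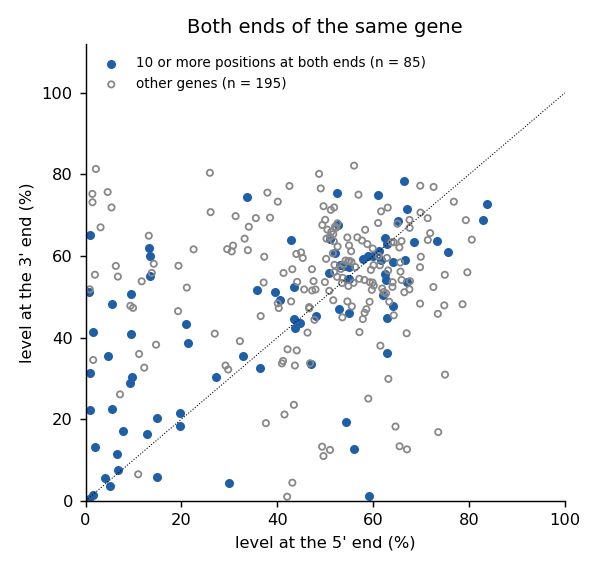
Methylation level at the 3' end (y axis, in percent) against that at the 5' end (x axis, in percent) of the 280 genes measured at both, over the summed columns. Filled points are the 85 genes with 10 or more positions at both ends, and the dotted line marks equal levels. Of the 280 genes, 62 have a 5' end lower by more than 20 points and 26 a 3' end lower by as much.

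Genes that host small RNAs held the largest group of starts under 20% among the lists. Of 37 names on this list, 36 were matched to autosomal long non-coding RNA genes, 22 were isolated and 18 gave 20 measured ends, with a median of 7.27%. Levels under 20% were found at 12 of the 20 ends, and at 10 of the 12 known 5' ends. Over all 3012 ends this share was 13.3%, and 18.6% over all 5' ends. The list's ends were, however, often dense, and 5' ends with 20 to 39 positions were under 20% in 38.8% of cases and those with 40 or more in 83.9%. The next values of single ends carry a 95% Wilson interval, which covers counting error only and is too narrow where a read gives calls at several positions.

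Starts of the small nucleolar RNA hosts were all under 10%. Snhg5 had 1.13% (interval 0.986 to 1.29%) over its whole 28-position window, with a lowest column of 0.580%, a median column of 1.09% and a highest column of 1.74%. Snhg17 had 0.956% (interval 0.760 to 1.20%), and its columns reached at most 1.62%. Snhg11, Snhg20 and Snhg15 had 5.40%, 5.48% and 7.80% at their 5' ends, and Snhg4 1.32% at an end of unknown strand. With windows of 2000 bp, Snhg20 had 27.9% and left the class under 20%, Snhg15 had 17.1% and Snhg17 8.04%, and with 500 bp Snhg20 had 0.897%, Snhg15 3.74% and Snhg5 0.671%. Snhg15 had 3.21% at positions with at least 20 reads. The 3' end of Snhg20 had 48.3%, with columns between 43.3% and 56.1%.

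The microRNA hosts were split. Dleu2, which hosts miR-15a and miR-16-1, had 0.869% (window chr14:61681373-61683373, interval 0.713 to 1.06%) at its 5' end, and Mir22hg, the host of miR-22, had 1.09% (interval 0.964 to 1.23%), and with windows of 2000 bp they had 6.46% and 2.70%. Dleu2 had 1.35% at positions with at least 20 reads. The neural hosts C130071C03Rik, which carries a miR-9 gene, Mir9-3hg and Mir124a-1hg had 4.79%, 5.99% and 6.74%. Mir99ahg had 46.1% at its 5' end, with columns between 37.2% and 60.7%, and Mir100hg had 61.3% at its 3' end, measured at only 5 positions. Mirt1, with 66.6% at its 3' end, was placed on the list by its name alone. Mir1a-1hg, the host of the muscle microRNA miR-1a-1, is not on the list and was named after its values were seen; it had 19.5% over 59 positions at its 5' end. Counted from the annotation and not from the list, 36 ends of genes that hold a microRNA gene had a median of 29.8%, against 52.9% at the other 2976 ends.

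Imprinted long non-coding RNA genes lay at intermediate levels throughout. Of 18 names, 12 were matched, 7 were isolated, and 3 genes gave 4 ends, all between 20 and 80%, as were 85.1% of all ends. The 5' end of Meg3, which lies in the Dlk1 to Dio3 domain and gives an RNA from the maternal allele, had 39.9% (window chr12:109539996-109541996, interval 39.4 to 40.5%) over 70 positions. Its columns had a lowest value of 32.8%, a median of 39.5% and a highest of 47.3%. Gm34081, which starts close to Meg3 on the other strand, had 38.5% over 57 positions, partly in the same stretch. The level of Meg3 is above the upper quartile of 14.6% for long non-coding RNA 5' ends with 40 or more positions. Mirg, a microRNA host of the same domain, had 22.5% at its 3' end over 5 positions, with columns between 9.48% and 33.3%. H19, the maternally expressed neighbour of Igf2, had 47.1% and 52.4% at its ends. Zim2 and Zim3, of the imprinted Peg3 domain, are not on the list and were named after their values were seen. Zim2 had 53.2% at its 3' end over 5 positions, and Zim3 had 46.2% over 26 positions, with columns between 41.6% and 50.5%. Parental alleles were not told apart in these data.

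Long non-coding RNAs known from pluripotent cells were spread over the level classes in much the same shares as all ends. Of 38 names, 21 were matched, 19 were isolated and 10 genes gave 11 ends with a median of 34.2%, 9 of them between 20 and 80%, as were 85.1% of all ends, and 2 under 20%. Oip5os1, also called Cyrano, which binds miR-7, had 0.662% (window chr2:119593296-119595296, interval 0.521 to 0.841%), with columns between 0% and 1.41%. Tunar, needed for neural differentiation of embryonic stem cells, had 3.501% over 44 positions (window chr12:105335594-105337594). The highest of its columns, 10.02%, stood apart from the next, 4.50%. Lncenc1 had 22.7% (interval 21.4 to 23.96%) in the window around the start shown above, with columns between 16.6% and 26.5%. The Platr genes, named as pluripotency-associated transcripts, had 29.7% (Platr14), 34.2% (Platr10), 50.2% (Platr3), 52.6% (Platr26) and 61.2% (Platr6) at their 5' ends. These 5 starts were measured at 3 to 9 positions, and Platr14 had columns between 15.1% and 38.2%. Platr5 had 65.8% at its 3' end, the highest level of the list, and Platr4 33.5% at an end of unknown strand.

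Genes named for developmental roles were split between lowly methylated starts and mostly partly methylated other ends. Of 41 names, 36 were matched, 29 were isolated, and 12 genes gave 12 ends with a median of 16.04%, 7 under 20% and 5 between 20 and 80%. All 5 of the known 5' ends were under 20%, against 18.6% of all 5' ends. They were dense, with 35 to 100 positions, and 83.9% of all 5' ends with 40 or more positions were under 20%. Chaserr, which lies beside Chd2 and limits its expression, had 0.933% (window chr7:73557395-73559395, interval 0.783 to 1.11%), with columns between 0.527% and 1.64%. Dubr had 2.46% over 57 positions, and Miat 7.10% over its whole window. Sox1ot, which overlaps the neural gene Sox1, had 10.5% over 100 positions and Pantr2, next to Pou3f3, 16.8% over 57. Their columns lay between 8.91% and 14.3% and between 14.2% and 21.1%, so that they overlapped only narrowly and stood apart from Chaserr. With windows of 500 bp, Dubr had 1.14% and Sox1ot 6.66%.

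The remaining ends of the developmental list were 3' ends or of unknown strand. Bvht, known as Braveheart from cardiac commitment, had 11.3% over 22 positions, and 23.3% with windows of 2000 bp. Carmn, beside the cardiac microRNAs miR-143 and miR-145, had 41.9% over 5 positions with columns between 30.7% and 60%. Hottip, at the distal end of the Hoxa cluster, had 23.5% at its 3' end, with columns between 19.6% and 31.8%. Vax2os had 15.3% at its 3' end, and 10.03% with windows of 2000 bp. Rmst and Sox2ot, both expressed in the developing nervous system, had 44.1% and 51.9%, and Lhx1os 56.7%.

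RNAs with nuclear or growth-related roles were lowly methylated, with the exception of 1 end of Trp53cor1. Of 17 names, 13 were matched, 9 were isolated and 5 genes gave 6 ends, 5 under 20%, with a median of 6.33%. Over all ends 13.3% were under 20%, and over all ends with 20 to 39 and with 40 or more positions 30.2% and 78.1%. Of the 6 ends, 5 held 18 to 90 positions. Malat1, an abundant RNA of nuclear speckles, had 0.703% (window chr19:5801672-5803672, interval 0.564 to 0.876%) at its 5' end, with columns between 0% and 1.37%. Pvt1, a neighbour of Myc, had 0.705%, and Dancr 1.26%, or 0.799% at positions with at least 20 reads. Lncpint, which p53 induces, had 11.4% over 90 positions, with columns between 9.39% and 12.6%, and 17.4% with windows of 500 bp. Trp53cor1, also induced by p53 and known as lincRNA-p21, had 2 ends of unknown orientation. The first had 19.7% over 9 positions, with columns between 8.49% and 29.9%, and 20.7% with windows of 500 bp, no longer under 20%. The other had 56.5% over 29 positions. An immune list of 8 names had 6 matched genes, 3 of them isolated, and none with a measured end.

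**Figure D5:**
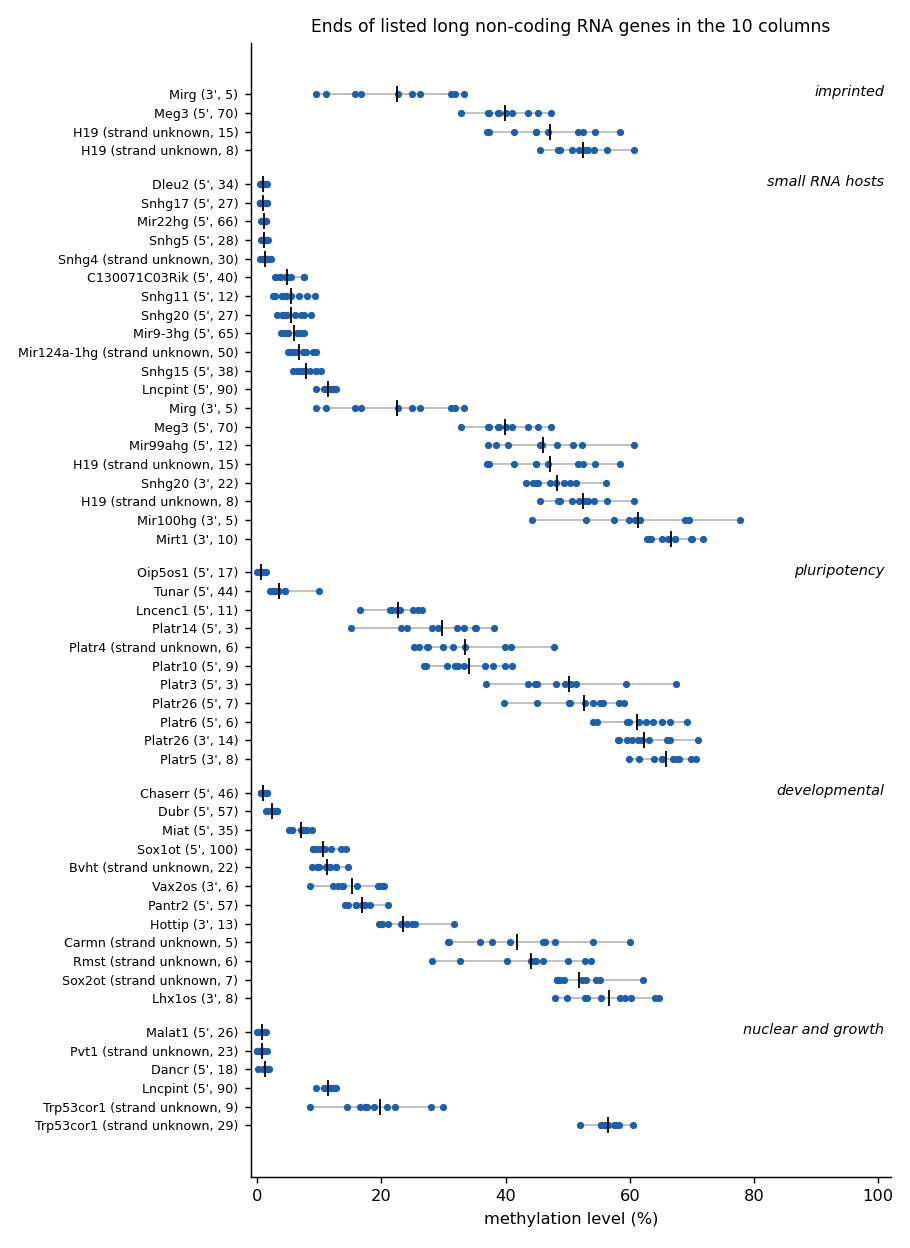
Methylation level (x axis, in percent) of the ends of listed long non-coding RNA genes in each of the 10 columns (points), with the level over the summed columns as a black bar. Labels give the end and the number of measured positions, and genes on 2 lists appear under each. Below 12% lie 12 of the 20 small RNA host ends and 4 of the 6 nuclear and growth ends, while Mir100hg and Mirt1 are above 60% and the imprinted ends lie between 22.5% and 52.4%.

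Among all ends with at least 10 positions, the 6 lowest included 4 starts. Gm30142, of unknown strand, had 0.205% over 11 positions and only 2921 calls, with columns between 0% and 1.80%, and 0.0741% without column 2. 2310034G01Rik had 0.407% at its 3' end and 0.634% at its 5' end, windows that share positions in a gene of 788 bp. 2700038G22Rik had 0.420%, but 50.7% with windows of 2000 bp. Oip5os1 and Gm26901 followed at 0.662% and 0.666%. Each of these windows of 1000 bp on each side was under 2% in all 10 columns.

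The 6 highest ends with at least 10 positions were of genes known only by Gm numbers, to which 2389 of all 3012 ends belong. Gm15199 had 90.2% (window chr10:42739019-42741019, interval 89.4 to 91.0%) over 16 positions, with a lowest column of 79.2%, a median column of 90.4% and a highest of 95%. Gm26511 had 90.1% at its 3' end with columns between 87.6% and 92.5%, and Gm31615 87.5% at its 3' end. Gm33752, Gm40915 and Gm4316 had 84.9%, 83.8% and 82.9% at their 5' ends. The lowest column of these 6 ends was 68.9%, in Gm4316.

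Some dense ends stood outside the pattern of low methylation, and the examples here were named after their values were seen. Of 128 ends with 40 or more positions, 100 were under 20%, 27 between 20 and 80%, and 1, 1700066J03Rik, above 80%. 1700066J03Rik had 80.9% over 45 positions (window chr13:58145949-58147949), and its columns between 78.2% and 82.8% were close together. Gm35939 had 74.6% over 47 positions at its 5' end, with columns between 70.4% and 82.6%. Gm43549 and Gm40685 had 67.1% and 65.01% at their 5' ends, and Gm41051 and Gm33552 66.5% and 64.1% at ends of unknown strand. Gm19935 had 59.1% and Gm35692 53.1% at their 3' ends. The columns of all these ends, of which the lowest was 49.3% in Gm35692, were above the upper quartile of 19.5% for the 128 ends.

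Of the 15 5' ends above 80%, 14 had a matched promoter, and the promoters of Gm30786 and Gm33752 shared a run of 43 bases in opposite orientation, the only shared run of 20 bases or more among 91 pairs. It is printed because it is what 2 of the most methylated starts share, and it was looked for after their levels were seen.
Shared run: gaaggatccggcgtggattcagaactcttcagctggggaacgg
It lies in the last part of the Gm30786 promoter above, and 3 of the 31396 autosomal promoters hold it, all 3 of long non-coding RNA genes. Gm30786 had 81.2% over 28 positions, with columns between 75.9% and 87.2%, and Gm33752 84.9% over 19, with columns between 78.7% and 93.3%. Repeats were not analysed here.

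The ends with the most calls were all under 20%. Mirc35hg, on chromosome 6 with its start at 30174125, had 1.02% over 124 positions and 53755 calls, with columns between 0.409% and 1.46%. Gm17762 had 0.948% over 131 positions. 4930550C17Rik had 13.95% over 117 positions, with columns between 11.9% and 15.6%. The 3' end of AY036118 stood apart in depth, with 5098679 calls over 242 positions, where the median end had 3895.5 calls, and its level was 6.50% with columns between 5.80% and 7.33%. It was 11.9% with the most covered positions left out and 10.5% with positions weighted equally. Whether the reads at this end of AY036118 come from a single place in the genome was not tested.

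Over all ends, levels also differed by the naming class of the gene, and less by its length, its distance from protein-coding genes or its chromosome. The medians were 51.3% over 441 ends of RIKEN clones, 53.6% over 2389 of genes with a Gm number and 51.9% over 54 with a LOC number. Ends of all remaining genes, called other symbols here, had a median of 37.0% over 128 ends. This remainder also holds names of letters and a number, such as AI506816 and U90926. At 5' ends the medians were 18.2% for other symbols, 46.8% for RIKEN clones, 50.5% for Gm numbers and 46.5% for LOC numbers. The 5' ends of other symbols also had more calls, with a median of 7918.5 against 4014 for Gm numbers. The part of density in this difference was not tested. The columns of these 5' medians did not overlap between other symbols (15.2 to 21.1%) and RIKEN clones (42.9 to 48.0%). RIKEN clones and Gm numbers (48.0 to 53.1%) met at 48.0%. By distance to the nearest protein-coding gene, 5' ends at over 5 to 20 kb had 45.6%, those at over 20 to 100 kb 50.3% and those beyond 100 kb 52.0%. Gene length made little difference at 5' ends, with medians between 48.9% and 49.7% in 4 classes. At 3' ends the medians were 50.6% under 2 kb, 54.9% at 2 to 10 kb, 56.7% at 10 to 50 kb and 56.9% at 50 kb or more. The shares of these 3' ends under 20% were 15.8%, 6.88%, 4.56% and 4.62%. In the 3 distance classes the 3' medians were 54.1%, 55.0% and 57.5%, and in the naming classes they lay between 53.6% and 55.9%. Chromosomes ran from 48.3% (chromosome 11, 191 ends) to 56.3% (chromosome 10, 177 ends).

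Starts with another long non-coding RNA start of the opposite strand in their window, 42 in all, had a median of 39.7%, against 49.6% at the other 1269. Their windows held a median of 20 positions, against 9 at the others. With 20 to 39 positions, the 13 such starts had 2.77%, with columns between 2.11% and 3.27%, and the 170 others 35.6%, with columns between 32.0% and 37.3%. In the other classes the order was the reverse: the medians were 57.9% at paired starts and 51.6% at the others with 3 to 4 positions, 64.3% and 52.5% with 5 to 9, 54.1% and 51.9% with 10 to 19, and 8.43% and 6.10% with 40 or more. These classes held 4 to 13 paired starts each. Starts of a pair can share positions, so these values are not independent of each other.

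At both limits of the definition, ends just outside had a higher median than ends just inside. Windows up to 1000 bp beyond the distance limit of 5000 bp had 44.0% over 97 ends, and those up to 1000 bp short of it, not included, 49.7% over 85. Ends with 3 positions had 54.4% over 237, and isolated ends with 2 positions, not included, 57.7% over 318. All 4093 long non-coding RNA ends within 5000 bp of a protein-coding gene had a median of 21.6%, with 49.3% of them under 20%.

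The median of the long non-coding RNA ends differed by about 5 points at most between columns. Coverage summed over all positions was between 73509873 and 127743904 calls per column, and an end had at least 30 calls in every column. The median over the ends was highest in column 1 and lowest in column 7, and the mean over all autosomal positions was also highest in column 1 (42.7%) and lowest in column 7 (40.1%). The order was not common to all kinds of ends, since isolated protein-coding ends had their highest median, 6.06%, in column 7. At the 1364 ends with 10 or more positions, column 9 was the highest of the 10 at 216 ends, column 1 at 208, and column 7 the lowest at 213, while column 3 was the highest at 169 ends and the lowest at 135. The spread over the columns was widest at intermediate levels, with a median range of 15.8 points at ends between 40 and 60% and of 2.11 points at ends under 5%. The widest ranges at 10 or more positions were those of Gm12930 (33.8 to 74.5%), 5033426O07Rik (39.6 to 78.6%), Gm29992 (43.3 to 81.1%), Gm52192 (38.9 to 76.1%), Gm30062 (10 to 46.9%) and Gm31114 (40 to 76.7%). Those ends had 2057 to 4529 calls over all columns, and any difference between arsenic and control embryos cannot be told apart from the other spread between columns.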

How the data were processed

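Embryo DNA was turned into reduced representation bisulfite libraries, as the labels' protocols state. Trim Galore, Bismark and methylKit, with mm10, appear in the submitters' processing notes. Versions and settings were not given in the sources used here. Per the file headers, the table that the authors deposited holds raw read counts per cytosine position (coverage, methylated and unmethylated calls) in 10 numbered columns. On the table it was checked that the calls sum to the coverage and that no position had fewer than 10 reads in any column. It holds only positions covered in all columns, so the ends described are those that every library reached. Of 2137826 table entries, 2 repeated a position and were left out. No molecular identifiers are named, and calls of 1 read are not independent.

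Columns were to be mapped to samples by matching names only, and 0 of 10 could be. The planned comparison of arsenic with control, by exact permutation tests adjusted over all gene ends, was not run, and values are given over columns without a test.

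Genes and biotypes came from the RefSeq table of GRCm38, the assembly behind mm10, and strands and promoters from RefSeq GRCm38.p6 promoter sequences, which gave the strand of 9291 of the 12408 long non-coding RNA genes. No gene of the biotype ncRNA was in the table. A level is summed methylated calls over summed coverage in a window, in percent. Of the 3012 ends, 241 shared all positions with another end, and 2890 distinct sets remained. Their 34821 positions are 1.66% of the 2101419 autosomal ones. Named genes are listed genes, the 6 highest, 6 lowest and 6 widest-ranging ends with at least 10 positions, and the 4 genes differing most between their ends. Members and lists were chosen with earlier results of these data known. The calculation of levels was tested on simulated data with known levels. Alternatives covered window, positions, distance, reads, highly covered positions, weighting, shared positions, microRNA hosts and each column. Python 3.11.15, numpy 2.4.6, pandas 2.3.3, scipy 1.17.1 and matplotlib 3.10.9 were used.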

Additional observations from a re-analysis of the deposited data

Results flagged for a closer look

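Each of 87 named ends and of 13 summary measures was examined for a column whose gap to the nearest other column, divided by the range of all 10, exceeded Dixon's 95% critical value of 0.466. Of the named ends, 7 had such a column, and none of the summary measures had one. Chance alone gives such a column in about 1 of 20 sets of values. Of all 1364 ends with 10 or more positions, 83 (6.09%) had one, with columns 7 and 9 the one apart at 18 ends each. The columns hold both groups of samples in an unknown order.

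Relative to the range, the widest of the 7 gaps was at the 5' end of Tunar, where column 7 had 10.02% and the other columns lay between 2.13% and 4.50%. At the end of Gm30142, of unknown strand, column 2 had 1.80% and the others at most 0.685%. This end had 2921 calls over all columns and as few as 122 in a column, so a few methylated calls decide these values. Hottip had 31.8% at its 3' end in column 2, with the next at 25.4%. Tbx3os2, which lies near Tbx3 and was examined after its values were seen, had 7.28% at its 5' end in column 9, with the next at 5.62%; over the summed columns it was 5.09%, but 1.96% at positions with at least 20 reads and 8.62% with positions weighted equally. Sox2ot had 62.1% in column 5, with the next at 55.2%. Lncenc1 had 16.6% at its 5' end in column 1, below the next at 21.3%. The 5' end of 2310034G01Rik had 1.73% in column 5, with the next at 0.905%.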

How the results depend on the processing

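No alternative changed the order of the medians of all long non-coding RNA and all protein-coding ends or the sign of the median difference 5' minus 3', and leaving out each column gave a range of -3.09 to -2.61 points for that difference and of 52.3% to 53.1% for the median of all ends. No paired analysis was possible because the column numbers are not tied to samples. With windows of 500 bp, the share of ends under 20% was 16.6% (5' ends 24.2%, 3' ends 6.67%), the share between 20 and 80% was 81.8%, the 5' median 45.9% and the difference within genes -5.23 points. Isolated protein-coding ends then had 2.24%, their 5' ends 1.55% and all protein-coding ends 1.98%. With windows of 2000 bp, the shares were 10.1% (5' ends 12.6%) and 88.4%, the 5' median 52.5%, the difference -0.841 points, and the protein-coding values 13.5%, 5.26% and 14.8% in the same order. With at least 5 positions the shares were 15.7% (5' ends 21.6%, 3' ends 8.50%) and 82.9%, and the protein-coding values 4.39%, 2.35% and 4.23%. With at least 10 positions the shares were 23.2% (5' ends 31.2%, 3' ends 13.2%) and 75.4%, the median of all ends 50.3%, the 5' median 42.0%, the difference -1.97 points, and the protein-coding values 2.95%, 2.06% and 2.78%. With at least 20 reads the shares were 14.7% (5' ends 20.7%, 3' ends 7.80%) and 83.96%, the difference -2.32 points, and the protein-coding values 4.48%, 2.29% and 4.29%. At over 2000 bp from protein-coding genes the shares were 14.2% (5' ends 19.9%, 3' ends 7.89%) and 84.2%, and isolated protein-coding ends had 6.07%. At over 20000 bp they were 11.8% (5' ends 16.5%, 3' ends 6.13%) and 86.5%, with a 5' median of 51.2% and isolated protein-coding ends at 4.399%. Weighting positions equally gave 12.98% of ends under 20%, and leaving out genes that hold a microRNA gene 13.004% (5' ends 17.96%). The cause of these shifts was not tested. Of the named ends, 22 of 87 moved by more than the standard deviation over the columns with windows of 2000 bp. With 500 bp 16 of 69 moved, with 20 reads 7 of 69 and with equal weights 5 of 87. A moved end can lie within its range of columns, as Lncenc1 with 25.9% at 20 reads and columns between 16.6% and 26.5%. With windows of 2000 bp, 3 of the moved ends left the class under 20%: Snhg20 (27.9%), Bvht (23.3%) and 2700038G22Rik (50.7%). Ends with 3 to 4 positions had a median range over the columns of 22.4 points, and the parts of depth, level and group in it were not tested.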
